A study of Mus musculus with 2 samples.

Results

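Wnt/β-catenin signaling has its own feedback loop, and the genes of that loop are the textbook targets of the Tcf/Lef transcription factors. Without a Wnt ligand, a cytoplasmic complex built on the scaffolds Axin1, Axin2 and Apc lets the kinase Gsk3b mark β-catenin, the product of Ctnnb1, for degradation. With a ligand, Frizzled and the coreceptors Lrp5 and Lrp6 stop that complex, and β-catenin enters the nucleus and acts with Tcf/Lef proteins at feedback genes such as Axin2, Znrf3, Rnf43 and Nkd1. Tcf1, the product of Tcf7, is the main member of this family in T cells and is known for its part in keeping their identity.

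Whether these classical Wnt genes carried Tcf1 in naïve CD8+ T cells was examined in 1 wild-type (WT) ChIP-seq library, with 1 Tcf1-deficient library as the control. The peaks described are those whose summit fell in the gene body of Axin1, Axin2, Apc, Ctnnb1, Gsk3b, Znrf3, Rnf43, Nkd1, Lrp5 or Lrp6, or within 50 kb of either end of it. There were 51 such peaks of 22286 deposited, and 48 of them were high-confidence Tcf1 peaks, of 19042 in all, with a fold enrichment of at least 4, a p under 1e-05 and a q under 0.05. Over the whole list 85.4% of deposited peaks met these criteria.

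Both libraries came from splenic naïve CD8+ T cells sorted as GFP+ TCRβ+ CD62L high, CD44 low to intermediate cells. Mice of both sexes, 6 to 12 weeks old, were used in the study, and the labels do not say which went into these libraries. According to the series' design text, all mice carried the human CD2-Cre transgene, active in mature T cells, and the Rosa26 lox-stop-lox GFP reporter, together with either wild-type or doubly floxed Tcf1 and Lef1. The sources differ on the control: its title reads Tcf1-deficient, its genotype field reads Tcf1-/-Lef1-/-, and the study's methods describe Cd4-Cre+ Tcf7 fl/fl mice. It is called Tcf1-deficient here, and a loss of Tcf1 alone and a loss of both factors cannot be told apart. The immunoprecipitation used a rabbit antiserum raised against full-length Tcf1. A peak list measures neither cell surface markers nor Tcf7 RNA, so the sort and the deletion could not be checked in it.

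For each summit the file gave the WT pileup, which is the number of WT fragments that cover it, and the fold enrichment, which is the pileup plus a pseudocount of 1 over the control level plus 1. The control level, computed back from these values, is the scaled level the peak caller took from the Tcf1-deficient library for the site, and it never went under a floor of 5.42 fragments. A value at the floor is that genome-wide minimum and says only that the library gave no more than this at the site. Without duplicates, 36938606 fragments were used for WT cells and 27625250 for Tcf1-deficient cells, a ratio of 1.34. Intervals on pileups are exact Poisson 95% intervals, those on shares are exact (Clopper-Pearson) binomial 95% intervals, and they cover counting error only. With 1 library per genotype no difference between genotypes or between sets of peaks was tested, and peaks are not replicates.

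All 10 genes had at least 1 high-confidence Tcf1 peak in their window, compared with 66.5% of 22350 protein-coding genes. The windows compared differ in length, at 130 to 269 kb for the 10 genes and a median of 115 kb for all protein-coding genes, and a longer window has more room for a peak. Among peaks whose nearest protein-coding start site was that of the gene itself, the strongest were at feedback genes: a fold enrichment of 111 in an intron of Znrf3, 41.8 at the Znrf3 start site, 41.2 at the Axin2 start site and 30.5 in an intron of Rnf43. The destruction complex and coreceptor genes (Axin1, Apc, Gsk3b, Ctnnb1, Lrp5 and Lrp6) had no such peak with a fold enrichment above 18.2. At Nkd1, also a feedback gene, the strongest such peak had 10.1, under those of Gsk3b (18.2), Axin1 (15.4) and Ctnnb1 (11.1). Peaks of 41.8 in the Rnf43 window and 39.0 in the Lrp5 window lay nearest to other genes. The map of peaks by gene shows where each lay.

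**Figure D1:**
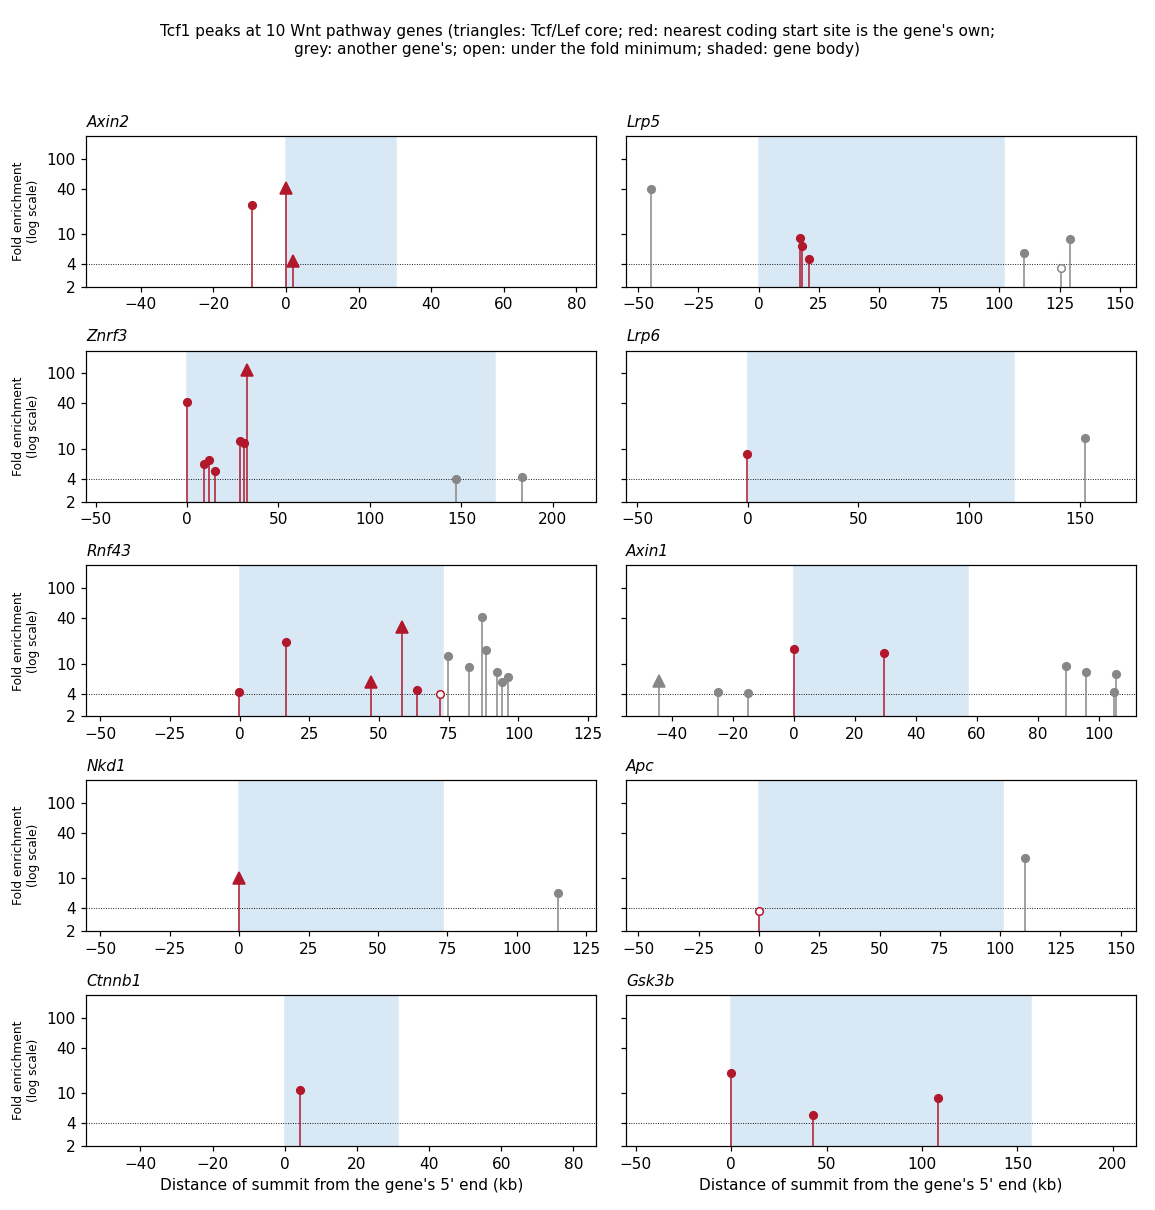
Fold enrichment (log scale) of each deposited Tcf1 peak against the distance in kb of its summit from the 5′ end of the gene, with 1 panel per gene, the gene body shaded and the minimum of 4 as a dotted line. Triangles have a Tcf/Lef core no more than 100 bp from the summit, red marks peaks whose nearest protein-coding start site is that of the gene itself, grey the others, and open symbols peaks under the minimum. The tallest peak stands in the Znrf3 intron at 111, and in the Rnf43, Lrp5, Lrp6 and Apc windows the tallest peaks are grey.

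The sequences at the summits of the feedback genes are shown because 6 of their peaks held the Tcf/Lef core ATCAAAG, the sequence that the DNA-binding domain of Tcf1 recognizes. All are mm9, written 5′ to 3′ on the plus strand, in lower case. Capitals mark the core, which reads CTTTGAT where it lies on the minus strand, and in the Znrf3 intron also the variant TTCAAAG (read CTTTGAA) and the Runx core TGTGGTT. The Axin2 start site is shown for 27 bases, all in the untranslated exon 1, and the others for 121 bases around the summit. The positions are chr11:5311739-5311859 for the Znrf3 intron, chr11:108781728-108781754 for the Axin2 start site, chr11:108783670-108783790 for the Axin2 intron, chr11:87534521-87534641 for the Rnf43 intron with the stronger peak, chr11:87523239-87523359 for the weaker one, and chr8:91045118-91045238 for Nkd1, just upstream of its start.
Znrf3 intron 1: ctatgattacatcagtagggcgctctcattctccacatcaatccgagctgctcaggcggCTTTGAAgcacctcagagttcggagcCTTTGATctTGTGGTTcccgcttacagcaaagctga
Axin2 start site: ggagccggctgcgCTTTGATaaggtcc
Axin2 intron 1: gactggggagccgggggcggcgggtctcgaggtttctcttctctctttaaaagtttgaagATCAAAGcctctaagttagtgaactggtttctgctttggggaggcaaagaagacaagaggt
Rnf43 intron 3: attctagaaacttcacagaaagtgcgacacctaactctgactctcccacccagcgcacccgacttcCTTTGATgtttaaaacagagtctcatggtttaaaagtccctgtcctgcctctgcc
Rnf43 intron 2: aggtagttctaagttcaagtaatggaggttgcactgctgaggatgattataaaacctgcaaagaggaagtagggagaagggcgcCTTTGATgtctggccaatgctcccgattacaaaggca
Nkd1 start site: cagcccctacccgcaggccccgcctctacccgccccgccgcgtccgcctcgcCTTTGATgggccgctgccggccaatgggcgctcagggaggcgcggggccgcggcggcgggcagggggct

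In these 6 sequences the centre of the core lay 28, 4, 3, 9, 27 and 5 bp from the summit, in the order shown. GC content within 100 bp of the summit was 82.1% at the Nkd1 start site, 68.7% at the Axin2 start site and between 47.8% and 51.2% at the 4 introns. The core was on the plus strand in the Axin2 intron and on the minus strand in the other 5.

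Strong peaks without the core were also present at these genes, and 1 is shown for contrast, with 1 at Gsk3b that held the variant and not the core. The Axin2 upstream sequence is chr11:108772328-108772448. The Gsk3b intron 7 sequence is chr16:38197485-38197605, and its capitals mark TTCAAAG on the minus strand, 6 bp from the summit. The same peak held the reversed core GAAACTA, 48 bp from the summit and not marked.
Axin2 upstream: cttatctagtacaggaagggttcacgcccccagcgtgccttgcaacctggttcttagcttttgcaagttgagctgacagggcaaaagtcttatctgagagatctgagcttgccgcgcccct
Gsk3b intron 7: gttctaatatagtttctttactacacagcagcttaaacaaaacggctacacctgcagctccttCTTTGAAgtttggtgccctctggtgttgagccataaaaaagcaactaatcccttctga

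Axin2 (ENSMUSG00000000142.9, plus strand, chr11:108781663-108812097) encodes the scaffold that Wnt signaling itself induces and that restarts β-catenin degradation. It had 3 high-confidence peaks, and all 3 lay nearest to a start site of Axin2. The summit 77 bp into the gene had 508 WT fragments (465 to 554) over a control level of 11.4, a fold enrichment of 41.2. This was the highest control level of all 48 peaks; against the floor of 5.42 the same pileup gives 79.3. The summit 9.28 kb upstream had 156 fragments (132 to 182) at the control floor, a fold enrichment of 24.5. The summit 2.07 kb into the gene, in intron 1 and 765 bp upstream of another annotated Axin2 start, had 27 fragments (17.8 to 39.3) at the floor and a fold enrichment of 4.36, just past the minimum. The 1561 bp start site peak also held a further core, 809 bp from its summit. Of the 22350 protein-coding genes, 385 had a stronger strongest peak than Axin2.

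Znrf3 (ENSMUSG00000041961.7, minus strand, chr11:5176327-5344850) encodes a membrane ubiquitin ligase that removes Frizzled from the cell surface. It had 9 high-confidence peaks, and 7 of them lay nearest to its own start site. The summit 33.1 kb into the gene, in intron 1, had 712 WT fragments (661 to 766) at the floor, and ranked 5 among all 22286 peaks by fold enrichment. Across the genome, 7 protein-coding genes had a stronger peak in their window. On the upstream side of it within intron 1, summits at 31.1 and 29.1 kb had 76 (59.9 to 95.1) and 88 (70.6 to 108) fragments and fold enrichments of 12 and 12.7. The weaker summits of intron 1, at 15.2, 12.3 and 9.20 kb, had 32, 44 and 39 fragments and fold enrichments of 5.14, 7.01 and 6.23. The summit 1 bp from the start site had 267 fragments (236 to 301), a fold enrichment of 41.8, and no core within 100 bp. In the remaining part of the window, a summit in intron 2 had 28 fragments and a fold enrichment of 4.04, and a summit 346 bp from the start site of Kremen1, which encodes a receptor of the Wnt inhibitor Dkk1, had 26 fragments and 4.21.

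Rnf43 (ENSMUSG00000034177.8, plus strand, chr11:87476224-87549041) encodes the paralog of Znrf3 with the same action on Frizzled. Its window held 12 high-confidence peaks, more than those of 99.1% of protein-coding genes, but for 5 of the 12 the nearest protein-coding start site was that of Rnf43. The strongest of these 5 was in intron 3, 58.4 kb into the gene, with 195 WT fragments (169 to 224), a fold enrichment of 30.5 and the core 9 bp from the summit. It lay 6.35 kb upstream of the start of a short annotated Rnf43 transcript. A summit in intron 2 at 16.5 kb had 135 fragments (113 to 160) over a control level of 6.02, a fold enrichment of 19.4 and the Runx core. The other intron 2 summit, at 47.1 kb, had 36 fragments (25.2 to 49.8), a fold enrichment of 5.76 and the core, with the start of 1110028F11Rik nearer, at 7.67 kb, when noncoding starts are counted. At the main Rnf43 start site the pileup was 26 (17.0 to 38.1) and the fold enrichment 4.21, and at 63.4 kb it was 28 and 4.52. The start site pileup was thus the lowest of the 5, and the highest were in introns.

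The other 7 high-confidence peaks of the Rnf43 window were downstream, near other genes. The highest of them, with 267 fragments (236 to 301) and a fold enrichment of 41.8, was 5.85 kb from A430104N18Rik, and its neighbour there had 105 fragments and 15.1. A summit 207 bp from the start of Supt4h1, a transcription elongation factor gene, had 80 fragments and 12.6, and a summit 7.51 kb from that start had 56 and 8.88. The remaining summits, at A430104N18Rik, Mir142 and Bzrap1, had 49, 36 and 42 fragments and fold enrichments of 7.79, 5.76 and 6.70. Mir142 encodes a microRNA of blood cells. By distance, the larger part of the count in the Rnf43 window thus fell to neighbouring genes.

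Nkd1 (ENSMUSG00000031661.5, plus strand, chr8:91045243-91118786) encodes an inhibitor that binds Dishevelled. It had 2 high-confidence peaks in a window of 174 kb, a density of 1.15 per 100 kb compared with 0.973 for the median protein-coding gene. The summit 65 bp upstream of its start had 64 WT fragments (49.3 to 81.7) at the floor, a fold enrichment of 10.1 and the core 5 bp from the summit. The other, with 40 fragments (28.6 to 54.5) and 6.39, was 91 bp from the start of Snx20. Axin2 and Nkd1 were thus the feedback genes with the core at a start site.

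Ctnnb1 (ENSMUSG00000006932.9, plus strand, chr9:120838334-120869625), the β-catenin gene, had 1 peak. Its summit was 31 bp from an annotated start site that lies 4.23 kb into the annotated gene, with 70 WT fragments (54.6 to 88.4) at the floor and a fold enrichment of 11.1. It had neither the core nor TTCAAAG within 100 bp.

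Gsk3b (ENSMUSG00000022812.7, plus strand, chr16:38089087-38246170), the kinase that phosphorylates β-catenin, had 3 high-confidence peaks, all nearest to Gsk3b among protein-coding genes. The summit 100 bp upstream of its start had 116 fragments (95.9 to 139) and a fold enrichment of 18.2, the highest start site value among the destruction complex and coreceptor genes. Summits in intron 7 and intron 1 had 60 and 32 fragments and fold enrichments of 8.69 and 5.14.

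Axin1 (ENSMUSG00000024182.9, plus strand, chr17:26275631-26332756), the constitutive counterpart of Axin2, had 9 high-confidence peaks in its window, of which 2 lay nearest to Axin1. The start site summit had 98 WT fragments (79.6 to 119), a fold enrichment of 15.4 and an ETS core, CGGAAGT, 44 bp away. The summit in intron 2, 29.6 kb into the gene, had 87 fragments (69.7 to 107) and 13.7. The other 7 were near Nme4, Tmem8, Mrpl28 and Itfg3 and had fold enrichments from 4.05 to 9.35. The peak inside the body of Nme4, with 37 fragments and 5.92, held the core, and no peak nearest to Axin1 did. The summit closest to a window limit was of this group: it lay 48.5 kb from the end of Axin1 with a fold enrichment of 7.32. The nearest one beyond a limit lay 50.2 kb from Ctnnb1, near Ulk4, with 9.19.

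Of the coreceptor genes, Lrp6 (ENSMUSG00000030201.8, minus strand, chr6:134396494-134516983) had a summit 174 bp upstream of its start, with 53 WT fragments (39.7 to 69.3) and a fold enrichment of 8.41. Its other peak, 13 bp from the start of Bcl2l14, had 89 fragments (71.5 to 110) and 14. Lrp5 (ENSMUSG00000024913.9, minus strand, chr19:3584825-3686564) had no deposited peak within 1 kb of a start site. Its 6 high-confidence peaks included 3 in intron 1, at 17.2, 17.9 and 20.8 kb, with 56, 43 and 29 fragments and fold enrichments of 8.88, 6.86 and 4.67. The strongest peak of the Lrp5 window, with 249 fragments (219 to 282) and 39.0, was 44.6 kb upstream of Lrp5 and 22.9 kb from 1810055G02Rik, the nearest start site. The last 2 peaks, with 8.73 and 5.65, were at Ppp6r3, and the latter had a control level of 8.02.

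Apc (ENSMUSG00000005871.7, plus strand, chr18:34380578-34481843), the scaffold whose loss activates the pathway in intestinal tumours, was the only one of the 10 genes with no high-confidence peak nearest to its own start site. At its start, a deposited peak 5 bp away had 23 WT fragments (14.6 to 34.5) at the floor and a fold enrichment of 3.74, under the minimum. At the floor 25 fragments are needed to reach 4, so the interval of this pileup spans the minimum. The high-confidence peak of the window was at the start of Srp19, a signal recognition particle gene, with 131 fragments (110 to 155), a control level of 6.02, a fold enrichment of 18.8 and 2 ETS cores.

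A high-confidence peak within 1 kb of an own start site was present at 8 of the 10 genes, all but Lrp5 and Apc, compared with 32.8% of protein-coding genes. Among the other pathway genes described below it was present at 29 of 94, from 0 of 20 receptor and R-spondin genes to 10 of 14 nuclear partners. Start site peaks of fold enrichment 20 or more were present at 2 of the 10, Axin2 and Znrf3, compared with 1.45% (323) of protein-coding genes. In pileup at the start site peak with the highest fold enrichment of each gene, Axin2 (508) and Znrf3 (267) did not overlap in their counting intervals with each other or with Gsk3b (116), the next. Further down the order Gsk3b overlapped with Axin1 (98), Axin1 with Ctnnb1 (70) and Nkd1 (64), and these with Lrp6 (53). Lrp6 did not overlap with the next, Rnf43 (26), which overlapped with Apc (23). A deposited peak under the fold minimum, 729 bp from another Rnf43 start, had 29 fragments (19.4 to 41.6) over a control level of 6.69, and its interval overlapped that of Lrp6. The plot of start site pileups shows these values in order of fold enrichment, and the control level was at the floor at all of the start site peaks it shows but that of Axin2.

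**Figure D2:**
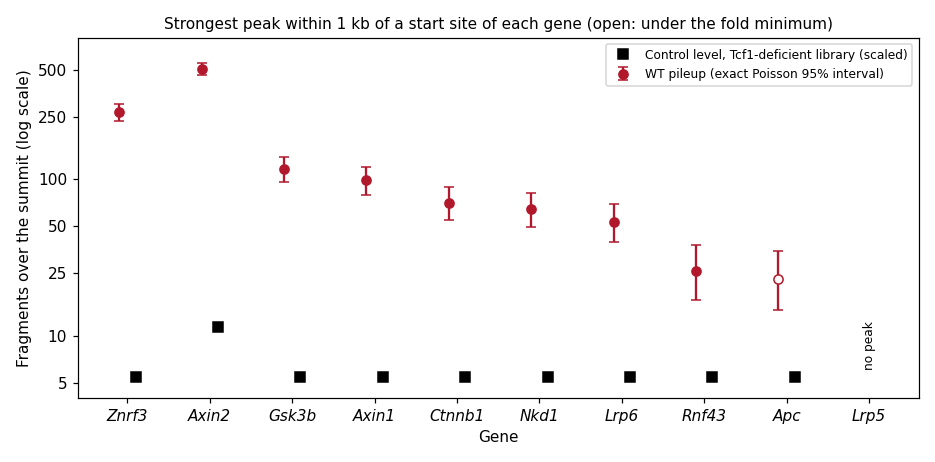
WT pileup at the strongest deposited peak within 1 kb of a start site of each gene (red, with exact Poisson 95% intervals; open, under the fold minimum) and the scaled control level from the Tcf1-deficient library (black squares), in fragments on a log scale. Genes are in order of fold enrichment, so Axin2, with 508 fragments and a control level of 11.4, stands after Znrf3 with 267 and 5.42, and Lrp5 had no peak.

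Assigned by the nearest protein-coding start site, 26 of the 48 peaks belonged to the 10 genes themselves and 22 to neighbours. A peak in its window nearest to its own start site was present at 9 of the 10 genes, compared with 40.4% of protein-coding genes. The 4 feedback genes had 16 of the 26 peaks, with a median fold enrichment of 11.1 and 5 at 20 or more. The other 6 genes had 10, with a median of 8.79 and none at 20 or more. The 22 peaks nearest to neighbours had a median of 7.56. With every peak counted, whatever gene was nearest, the median was 8.34 in the feedback windows and 8.55 in the other 6 windows. Over the 48 peaks the median was 8.55 (interquartile range 5.74 to 14.3), compared with 6.86 (5.14 to 10.6) over all high-confidence peaks, and 7 (14.6%) had 20 or more, compared with 7.98% of all. Of those 7, 6 were in feedback windows and the seventh was the distant peak upstream of Lrp5. The cumulative curves of fold enrichment show the set of own peaks to the right of all peaks over most of the range, while that of neighbours' peaks follows all peaks closely.

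**Figure D3:**
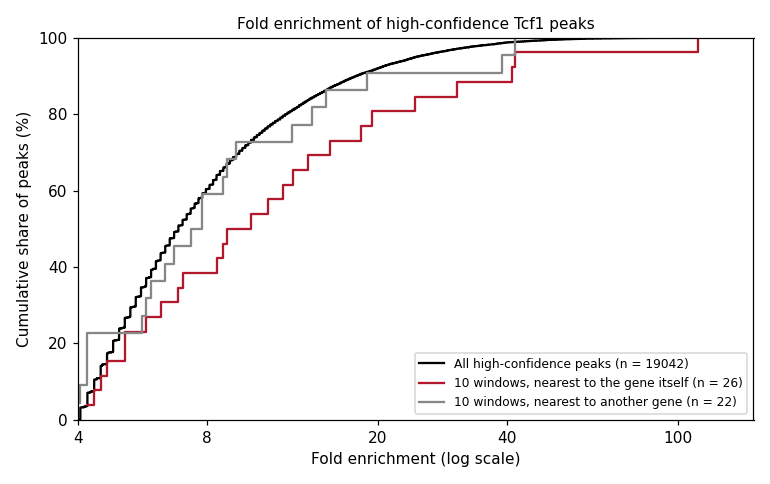
Cumulative share (%) of high-confidence Tcf1 peaks against fold enrichment (log scale), for all 19042 peaks (black), the 26 nearest to the 10 genes themselves (red) and the 22 of the same windows nearest to other genes (grey). The medians are 6.86, 9.50 and 7.56, and the last step of the red curve is the Znrf3 intron at 111.

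Peaks were spread unevenly over the windows. Together the 10 windows held 2.51 high-confidence peaks per 100 kb (1.85 to 3.32), compared with 1.53 for the windows of all protein-coding genes pooled. The feedback windows held 3.49 (2.28 to 5.11) and the other 6 windows 1.88 (1.18 to 2.85). By gene the density ran from 0.497 at Apc, 0.762 at Ctnnb1 and 0.907 at Lrp6 to 5.73 at Axin1 and 6.94 at Rnf43, the 2 windows with 7 peaks each nearest to other genes. Znrf3 (3.35), Lrp5 (2.97) and Axin2 (2.30) lay between, and Gsk3b (1.17) and Nkd1 (1.15) were near the median gene.

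By position, 9 of the 48 peaks were within 1 kb of an own start site, with a median fold enrichment of 11.1, and 12 were at a start site of another gene, with a median of 6.08. A further 17 were in the body of the gene (median 7.01, range 4.04 to 111), 4 in the body of another gene and 6 between genes. The promoter share, that within 1 kb of any start site, was 43.8% (29.5 to 58.8), compared with 39.6% of all high-confidence peaks. The control level was at the floor at 40 of the 48 peaks (83.3%, compared with 86.3% of all), and at the other 8 it was between 6.02 and 11.4.

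The exact core ATCAAAG, searched on both strands within 100 bp of the summit, was present at 7 of the 48 peaks (14.6%, 6.07 to 27.8), compared with 10.2% of all high-confidence peaks. In windows of the same length 2 kb to either side it was present in 4.17% for these peaks and in 3.31% for all. Among peaks nearest to the gene itself, 6 of 16 held it at the feedback genes (37.5%, 15.2 to 64.6) and 0 of 10 at the other 6 genes, which allows a share of up to 30.8%. These intervals overlap. The core lay within 25 bp of the summit in 5 of the 7 (71.4%), at a median of 9 bp, compared with 60.1% and a median of 18 bp over the 1940 peaks that held it. Among the 7 with a fold enrichment of 20 or more, 3 held the core, at the Axin2 and Znrf3 and Rnf43 peaks shown, and 4 did not. Of all 1519 high-confidence peaks of that strength 313 (20.6%) held it. The variant TTCAAAG was at 12.5% of the 48 (all peaks 10.7%), the reversed core GAAACTA at 4.17% (2.40%), the ETS core CGGAAGT at 6.25% (6.93%) and the Runx core TGTGGTT at 10.4% (15.5%). ATCAAAG and TTCAAAG cannot match at the same position, so no copy counts as both, and a match is not a measured site.

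**Figure D4:**
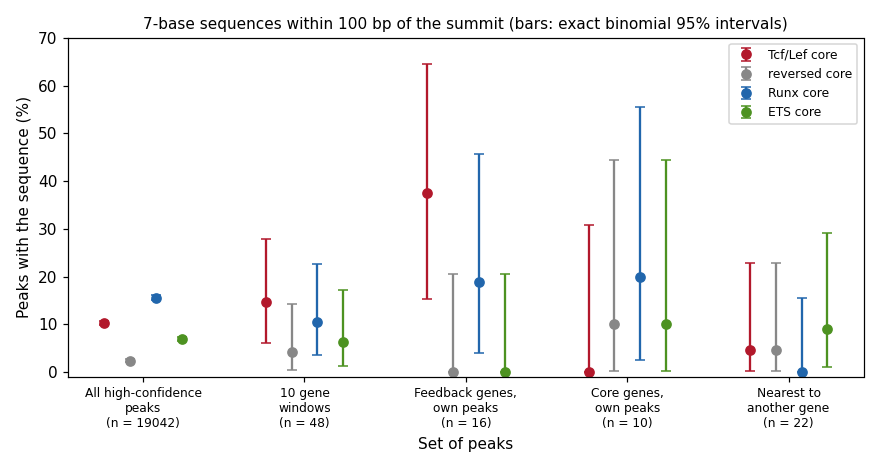
Share (%) of high-confidence peaks that held each 7-base sequence within 100 bp of the summit, in 5 sets of peaks, with exact binomial 95% intervals. The Tcf/Lef core (red) is at 37.5% of the 16 own peaks of the feedback genes and 0% of the 10 own peaks of the other genes, with wide intervals that overlap.

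Other genes of the pathway, 94 in 6 lists by role, were surveyed in the same way. A high-confidence peak in the window was present at 62 of the 94 (66.0%), close to the 66.5% of all protein-coding genes, and at an own start site at 29 (30.9%, compared with 32.8%). The roles differed widely. Of 21 genes for ligands and their secretion 13 had a peak in the window and 1 at an own start site. Of 20 receptor and R-spondin genes 5 and 0 did, and of 13 extracellular inhibitor genes 7 and 1. Inside the cell the numbers were higher: 15 and 12 of 18 cytoplasmic genes, 14 and 10 of 14 nuclear partners, and 8 and 5 of 8 classical targets. For 6 of these 8 targets a peak lay nearest to the gene itself, compared with 40.4% of protein-coding genes, and Ccnd1 and Fosl1 had none. Each gene was listed under 1 role only, so the 8 are not all the known targets of the pathway.

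In each role the 2 genes with the strongest peak in their window are named. Tcf7 itself had a peak of 142 with 997 WT fragments, and Tcf7l2, another family member, had 48.8 with 312 fragments and the core. Tnks, whose product tankyrase degrades Axin, had 69.5 with 445 fragments and the core, 20.4 kb from its start, and the strongest peak in the window of Gsk3a, the paralog of Gsk3b, had 32.9 and was nearest to Dedd2. Of classical targets, the strongest in the window of Ppard, a nuclear receptor gene, had 31.0 and was nearest to Def6, while the strongest nearest to Ppard itself had 26.9 with 188 fragments and the core, 14.7 kb from its start. Sp5, a transcription factor gene, had a peak of 27.7 with the core, 49.1 kb from its start. Outside the cell, the strongest peaks in the windows of Kremen1 (34.5), Wnt3a (25), Notum (16.2) and Fzd5 (14.5) were all nearest to another gene. That in the Wnt10a and Wnt6 windows was 1 shared peak (16.8) nearest to Wnt10a, and that of Lgr6 had 6.70. The Kremen1 and Znrf3 windows overlap and share peaks.

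**Figure D5:**
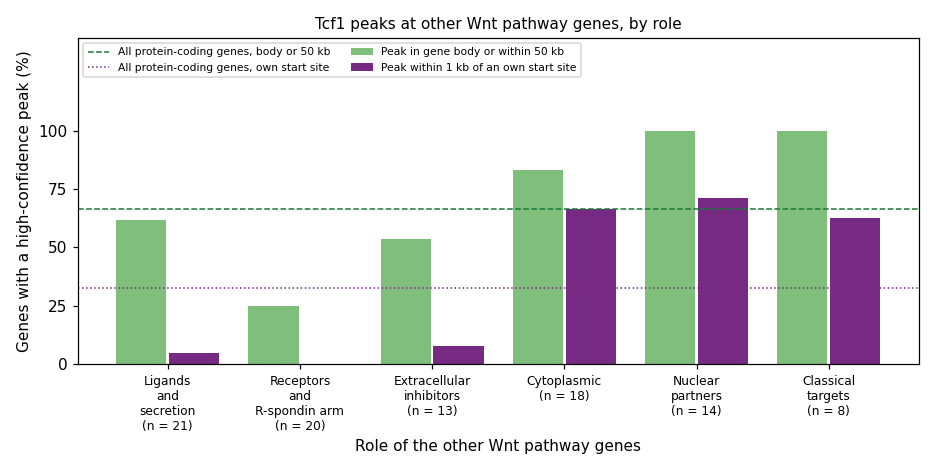
Share (%) of the other Wnt pathway genes, by role, with a high-confidence Tcf1 peak in the gene body or within 50 kb (green) and within 1 kb of an own start site (purple), beside the shares over all protein-coding genes (lines, 66.5% and 32.8%). The 20 receptor and R-spondin genes are lowest at 25% and 0%, and the 14 nuclear partners highest at start sites at 71.4%.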

How the data were processed

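Tcf1 ChIP-seq was deposited as 1 peak list from 1 WT and 1 Tcf1-deficient library. The authors checked reads with FastQC, aligned them to mm9 with Bowtie2 2.2.5 and called peaks on read pairs with MACS2 2.1.1 (p under 1e-05, duplicates removed). The deposited signal (pileup) is a coverage in whole fragments, the deposited ratio is the fold enrichment, and the deposited −log10 p and −log10 q values come from a Poisson model. The deposited positions and widths are other columns, in bp. Per the file headers the larger library was scaled down and q was not computed, but a Poisson p from the unscaled pileup matched within 0.01 for 100% of 21770 peaks, and every q was positive.

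From these values the control level was computed as (pileup + 1)/fold enrichment − 1. Start sites and gene bodies came from GENCODE vM1 on NCBIM37, which is mm9, and sequences from that genome (Python 3.11.15, pysam 0.24.0, scipy 1.17.1). The genes, lists and sequences were chosen with earlier results of these data known. By rule, all 10 genes are named, as are every high-confidence peak of Axin2, Znrf3, Rnf43, Nkd1 and Ctnnb1, at least the 2 strongest of the others, the start site peaks of all, and the 2 strongest genes of each other role. All 94 other genes matched, 1 through a synonym. Motif, distance and interval functions were tested on simulated data. Alternatives covered the fold and q minimum, the window, the promoter width and the motif search. With 1 library per genotype there was no test and no replicate to leave out.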

Additional observations from a re-analysis of the deposited data

Results flagged for a closer look

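Peaks that were deposited but left out of the high-confidence set lay in the windows of 3 of the genes. All deposited peaks had passed the p limit of WT over control, so a pileup above the control level was set by the peak calling. At Rnf43, 71.9 kb into the gene and 729 bp from the start of a short annotated transcript, 29 fragments (19.4 to 41.6) stood over a control level of 6.69, a fold enrichment of 3.90. In the Lrp5 window, in the body of Ppp6r3, 22 fragments (13.8 to 33.3) at the floor gave 3.58, with TTCAAAG within 100 bp. At the Apc start site 23 fragments (14.6 to 34.5) gave 3.74.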

How the results depend on the processing

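Of 79 alternative values of the 9 results, 69 stayed within their limits and 10 moved. The limit was 1.5 times for a count and the 95% interval for a density, share or median. With a fold minimum of 8 the 10 windows held 25 high-confidence peaks in place of 48, at a density of 1.31 per 100 kb and a median fold enrichment of 14. With 10 kb at either end there were 31 peaks, and 41 of the 94 other pathway genes had a peak in place of 62. For the fold minimum of 8 and the 10 kb window no matching values over all protein-coding genes are given. The counts and density at these settings thus cannot be set beside 66.5% or 1.53, which belong to the main setting. With 50 kb upstream only there were also 31 peaks. With peaks assigned to the nearest protein-coding start site there were 26, and 37 of the 94 other pathway genes had one, compared with 40.4% of protein-coding genes. The promoter share was 18.8% when counted over start sites of the 10 genes alone. The median control level was 6.31 with no pseudocount in place of 5.42, where its interval has no width. All 10 genes kept a peak except under the upstream and nearest-start rules, where 9 did, without Apc. Peak counts of single genes moved in 23 of 80 alternatives. The core share was 14.6% within 50 bp, 18.8% in the widest search around the summit, 25% with either ATCAAAG or TTCAAAG, and 18.8% in whole peaks, an alternative chosen after seeing the data, compared with 8.21, 13.9, 19.9 and 15.1% of all peaks. A density for the nearest-start rule was not run, as it has no window length. No paired analysis was possible because each genotype has 1 library.

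For 9 of the 48 peaks the distance to the fold minimum was no more than 1 Poisson SD of the pileup. Whether depth limits the weakest peaks was not tested.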

Other observations

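Some genes of the other lists, chosen after their values were seen, had a peak nearest to themselves with the core within 100 bp. Tnks2, the second tankyrase gene, had 142 WT fragments and a fold enrichment of 22.3, 0.655 kb from its start. Csnk1a1, which encodes the kinase that primes β-catenin for Gsk3b, had 188 fragments and 29.4, 0.384 kb from its start. Tle3, which encodes a Groucho corepressor that binds Tcf/Lef proteins, had 137 fragments and 21.5, 17.2 kb from a start site. These are picked from the 37 of the 94 genes that had a peak nearest to themselves. Own peaks of like strength lacked the core at Lef1 (36.4), Tle4 (28.2), Pygo1 (22.0) and Bcl9 (20.4). By contrast Myc, the target most often cited for the pathway in the intestine, had a strongest peak of 4.83 with 30 fragments, 0.045 kb from its start, and that in the Ccnd1 window had 6.39 and was nearest to Oraov1.

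Searched over whole peaks, 9 of the 48 held the core, 10 copies in all. The 2 beyond those found near summits were in the Lrp6 start site peak, 213 bp from the summit, and in the Axin1 window in the body of Itfg3, 210 bp from the summit.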
